A study of Homo sapiens with 6 samples.

Results

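The genes described here make up the machinery that copies DNA and supplies its building blocks: 51 genes for origin recognition, helicase loading and firing, the replicative polymerases, the sliding clamp and its loader, Okazaki fragment joining, deoxynucleotide synthesis and replication-coupled chromatin assembly. They were chosen by name, with earlier results of these data known, and all 51 were found among the 36601 genes of the count table. RNA-seq was performed on NK92 (NK-92) cells, which derive from a human NK cell lymphoma and depend on IL-2 for growth, stably expressing either a control short hairpin RNA (shCtrl) or a hairpin directed at the miR155HG transcript (shmiR155HG). The 2 groups had 3 libraries each, and all 6 came from cells that received IL-2 at 1000 U/mL together with IL-12 at 10 ng/mL for 12 h. No untreated cells and no second hairpin were among these libraries, and whether the 3 libraries of a group came from separate cultures is not given in the sources used here, so the p-values measure the spread between these libraries.

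As background, replication origins are first bound by the origin recognition complex (ORC), which with CDC6 and CDT1 loads the ring-shaped MCM2-7 helicase onto DNA in G1 phase. In S phase the kinase CDC7 and further factors add CDC45 and the GINS complex to this ring, which gives the active CMG helicase. DNA polymerase alpha-primase then lays down primers, RFC loads the PCNA clamp, and polymerases delta and epsilon extend the strands, while ribonucleotide reductase, thymidylate synthase and thymidine kinase provide deoxynucleotides. Many of these genes are classical targets of E2F transcription factors, and their mRNA peaks around the entry into S phase. NK cells divide rapidly in response to IL-2, and this programme is part of that response.

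Sequencing gave between 33454786 and 39157264 counts per library, with the fewest in shmiR155HG replicate 3. The scaling factors of the TMM method ranged from 0.997 to 1.003. The targeted transcript MIR155HG had 73, 67 and 62 counts in the shCtrl libraries and 28, 19 and 10 counts after knockdown (log2 fold change -1.78 ± 0.43 SE, edgeR quasi-likelihood test, adjusted p = 0.0045). Of 15 NK cell markers, 14 passed the filter on low counts, the exception being CD7 at 0 to 32 counts. TYROBP (43 to 80 counts) and FCER1G (29 to 77 counts) passed it at low levels. Over the 6 libraries GZMB ran from 511 to 1244 CPM (counts scaled to library size) and IL2RB from 954 to 1290 CPM. The summed level of the 15 markers was 4787 to 4803 CPM in the shCtrl and 4388 to 4553 CPM in the shmiR155HG libraries. Of 7 T cell markers, CD3G, CD4 and CD8A had at most 3 counts in any library, and the summed level of the 7, nearly all from the T cell receptor genes TRAC, TRBC1 and TRBC2, was 374 to 397 CPM and 427 to 460 CPM in the same order. The 3 B cell markers summed to at most 1.13 CPM. Of the 4 myeloid markers, ITGAM had 241 to 594 counts, CSF1R 100 to 218, CD14 0 to 23 and LYZ 0 to 3. These 4 summed to 12.2 to 20.8 CPM in shCtrl and 10.7 to 13.8 CPM in shmiR155HG libraries. What part these marker levels have in the results below was not tested.

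The DNA before the start sites of these genes was read for short words of known factors. The 250 bases before the annotated start site (RefSeq, GRCh38.p14) were searched on both strands for the E2F-type words TTTCCCGC, TTTCGCGC, TTTGCCGC and TTTGGCGC. Such a word was found before 16 of the 44 members present in the promoter table (36.4%), against 536 of 9138 tested genes in that table (5.87%). Counted by promoter, the shares were 28.8% of 59 member promoters and 2.79% of all 35116 promoters. One site is given for each role group that had a member with such a word among those called lower, taking the member with the largest fall, as 30 bases written 5′ to 3′ along the strand of the gene with the E2F-type word in capitals.
PCNA: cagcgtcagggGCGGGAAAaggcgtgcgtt
LIG1: acttcacccctTTTCCCGCcctcctcccat
POLA2: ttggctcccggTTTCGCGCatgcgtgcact
CDC7: tccgacctgcgGCGGGAAAgtcgcgcgcct
E2F1: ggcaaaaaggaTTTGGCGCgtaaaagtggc
TYMS: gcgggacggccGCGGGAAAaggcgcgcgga
MCM3: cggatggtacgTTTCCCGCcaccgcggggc

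LIG1 and MCM3 carried TTTCCCGC along the strand of the gene. PCNA, CDC7 and TYMS carried the same word on the other strand, read as GCGGGAAA, which begins 59, 34 and 39 bases before their respective start sites. The word lay closest to the start in E2F1, at 20 bases, and farthest in MCM3, at 174 bases, with POLA2 at 53 and LIG1 at 114 bases. On hg38 the windows were chr20:5126663-5126692 for PCNA (minus strand), chr19:48170440-48170469 for LIG1 (minus), chr11:65261898-65261927 for POLA2 (plus), chr1:91501067-91501096 for CDC7 (plus), chr20:33686387-33686416 for E2F1 (minus), chr18:657603-657632 for TYMS (plus) and chr6:52284898-52284927 for MCM3 (minus). The PCNA, E2F1, TYMS and MCM3 windows lay outside the gene as GENCODE draws it, the CDC7 window fell in a part of the gene that is not exonic, the LIG1 window fell wholly in an exon of a longer transcript, and 15 of the 30 bases of the POLA2 window were exonic. Among members called lower in shmiR155HG cells, 11 of 27 had an E2F-type word (40.7%), and among the remaining members 5 of 17 had one (29.4%), so the word was present in both sets. On both strands of the same windows, the CCAAT word was found before 26 of the 44 members (59.1%) and 41.8% of tested genes. TTTGAA, the core of the CHR element of many mitotic genes, was found before 2 members (4.55%) and 12.2% of tested genes, and the STAT-type word TTCNNNGAA before 5 members (11.4%) and 7.49% of tested genes. These matches describe letters in a window and do not show binding, and CCAAT and TTTGAA are short enough to occur often.

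The level of this set, chosen with earlier results of these data known, was lower in shmiR155HG cells. No test of the list as a whole was made. Of the 51 members, all of which passed the low-count filter (over 1 CPM in 2 or more libraries), 31 were called lower, 0 higher and 20 were not called (edgeR quasi-likelihood test, Benjamini-Hochberg adjustment over 12263 genes, adjusted p under 0.05). At an unadjusted p under 0.05, 33 members were lower and 0 higher, beside 1726 (14.1%) and 1617 (13.2%) of all genes tested. Over all genes tested, 984 were called lower (8.02%) and 890 higher (7.26%), which became 674 and 580 without shmiR155HG replicate 2. Members are well expressed, and among the 8021 genes at or above the mean level of the lowest member, 871 were called lower (10.9%).

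The falls were small. The log2 fold changes of the members ranged from -0.39 for RRM2 to 0.022 for ORC1, with 48 below 0 and a median of -0.17, beside a median of 0.00097 for all genes tested. In 34 members every shmiR155HG library lay below every shCtrl library, which was true of 15.6% of all genes tested, and the reverse order, seen in 15.2% of all genes, occurred in 0 members. The summed level of the members was 10334, 10381 and 10611 CPM in the shCtrl libraries and 9328, 9312 and 9331 CPM in the shmiR155HG libraries, which is 10.7% lower. All 3 shmiR155HG libraries were below the lowest shCtrl library and lay close to each other. In bulk RNA, fewer cells in S phase and less of these transcripts per cell cannot be told apart.

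**Figure D1:**
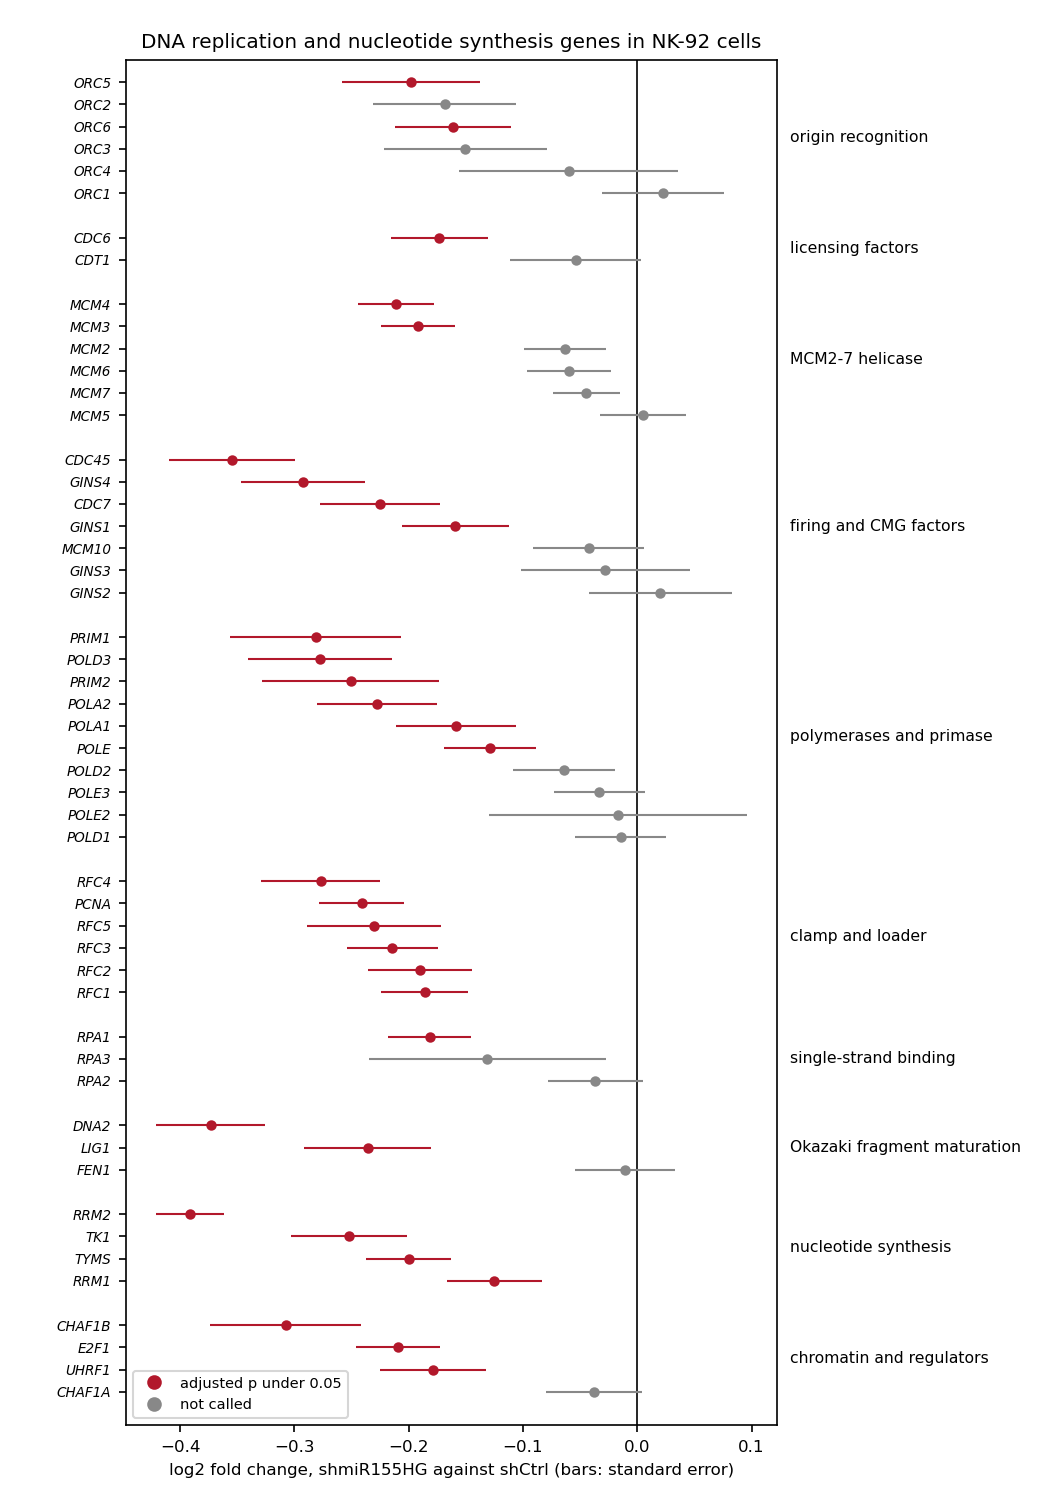
Log2 fold change of each of the 51 members (x axis, shmiR155HG against shCtrl, bars show the standard error), sorted within role groups, with members at an adjusted p under 0.05 in red. All 31 red points lie left of 0, from RRM2 at -0.39 to RRM1 at -0.12, and the 20 grey points include the 3 members above 0.

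Nucleotide synthesis showed the largest fall in summed level of the 10 role groups, and all 4 of its genes were called lower. Most of this sum came from RRM2 (mean 978.5 of 1521 CPM in the shCtrl libraries). By median log2 fold change, Okazaki fragment maturation lay lower, at -0.236 against -0.226 for nucleotide synthesis. RRM2, the regulated small subunit of ribonucleotide reductase, which turns ribonucleotides into deoxyribonucleotides, measured 979, 961 and 996 CPM in the shCtrl libraries and 743, 754 and 741 CPM in the shmiR155HG libraries. The groups were far apart relative to their spread, and RRM2 fell by 23.8% (log2 fold change -0.39 ± 0.030 SE, adjusted p = 2.00e-10). It spans chr2:10120698-10211725 on the plus strand. TK1, the cytosolic thymidine kinase of the salvage route, was at 110.4, 113 and 117 CPM in shCtrl and 93.8, 99.97 and 92.4 CPM in shmiR155HG (log2 fold change -0.25 ± 0.051 SE, adjusted p = 7.90e-04), without overlap. TYMS, which makes thymidylate from deoxyuridylate, gave 254, 261 and 261 CPM against 229, 218 and 229 CPM (log2 fold change -0.20 ± 0.037 SE, adjusted p = 3.47e-04), also without overlap. ENOSF1, whose exons on the opposite strand share 39.9% of the exonic bases of TYMS, was itself not called (log2 fold change -0.17 ± 0.099 SE, adjusted p = 0.29), and since strand use in the counting is not given in the sources used here, reads of the pair cannot be told apart.

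RRM1, the large subunit of ribonucleotide reductase, had a smaller fold change than its partner. Its level was 166, 172 and 173 CPM in shCtrl and 160.5, 152 and 157 CPM in shmiR155HG libraries (log2 fold change -0.12 ± 0.041 SE, adjusted p = 0.039). The groups did not overlap, but the call was lost with most of the libraries left out in turn. The adjusted p of RRM1 was 0.12 and 0.090 without shCtrl replicates 2 and 3, 0.051, 0.18 and 0.10 without shmiR155HG replicates 1, 2 and 3, and 0.030 to 0.18 over the 14 alternatives that give an adjusted p. Within each library, counts of RRM2 were 5.88, 5.60 and 5.75 times those of RRM1 in shCtrl and 4.63, 4.98 and 4.73 times in shmiR155HG cells, a pair chosen after the values were seen and given with no test. The 4 genes together summed to 1510, 1507 and 1548 CPM in shCtrl and 1226, 1224 and 1219 CPM in shmiR155HG libraries, 19.6% lower.

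All 6 genes of the sliding clamp and its loader were called lower. PCNA, the ring that tethers polymerases to DNA, is at chr20:5114953-5126626 on the minus strand and was the member with the highest level per length, 376 CPM per kb in shCtrl cells. Its values were 487, 479 and 472 CPM in shCtrl and 408, 381 and 428 CPM in shmiR155HG libraries (log2 fold change -0.24 ± 0.037 SE, adjusted p = 3.35e-05), with the highest shmiR155HG library below the lowest shCtrl library. RFC4, a small subunit of the clamp loader, was at 115, 111 and 109.7 CPM and 97.1, 87.3 and 92.3 CPM (log2 fold change -0.28 ± 0.052 SE, adjusted p = 3.87e-04). The same separation of the groups was seen for the remaining loader subunits. RFC3 was at 214, 213 and 202 CPM in shCtrl and 178, 178 and 186 CPM in shmiR155HG (log2 fold change -0.21 ± 0.040 SE, adjusted p = 3.45e-04), and RFC5 at 75.4, 76.5 and 74.3 CPM and 63.5, 67.0 and 62.2 CPM (log2 fold change -0.23 ± 0.059 SE, adjusted p = 0.00723). RFC1, the large subunit, and RFC2 had log2 fold changes of -0.19 and -0.19, with adjusted p = 9.37e-04 and 0.00417. The 6 genes were thus within a narrow band, from -0.28 to -0.19 on the log2 scale.

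**Figure D2:**
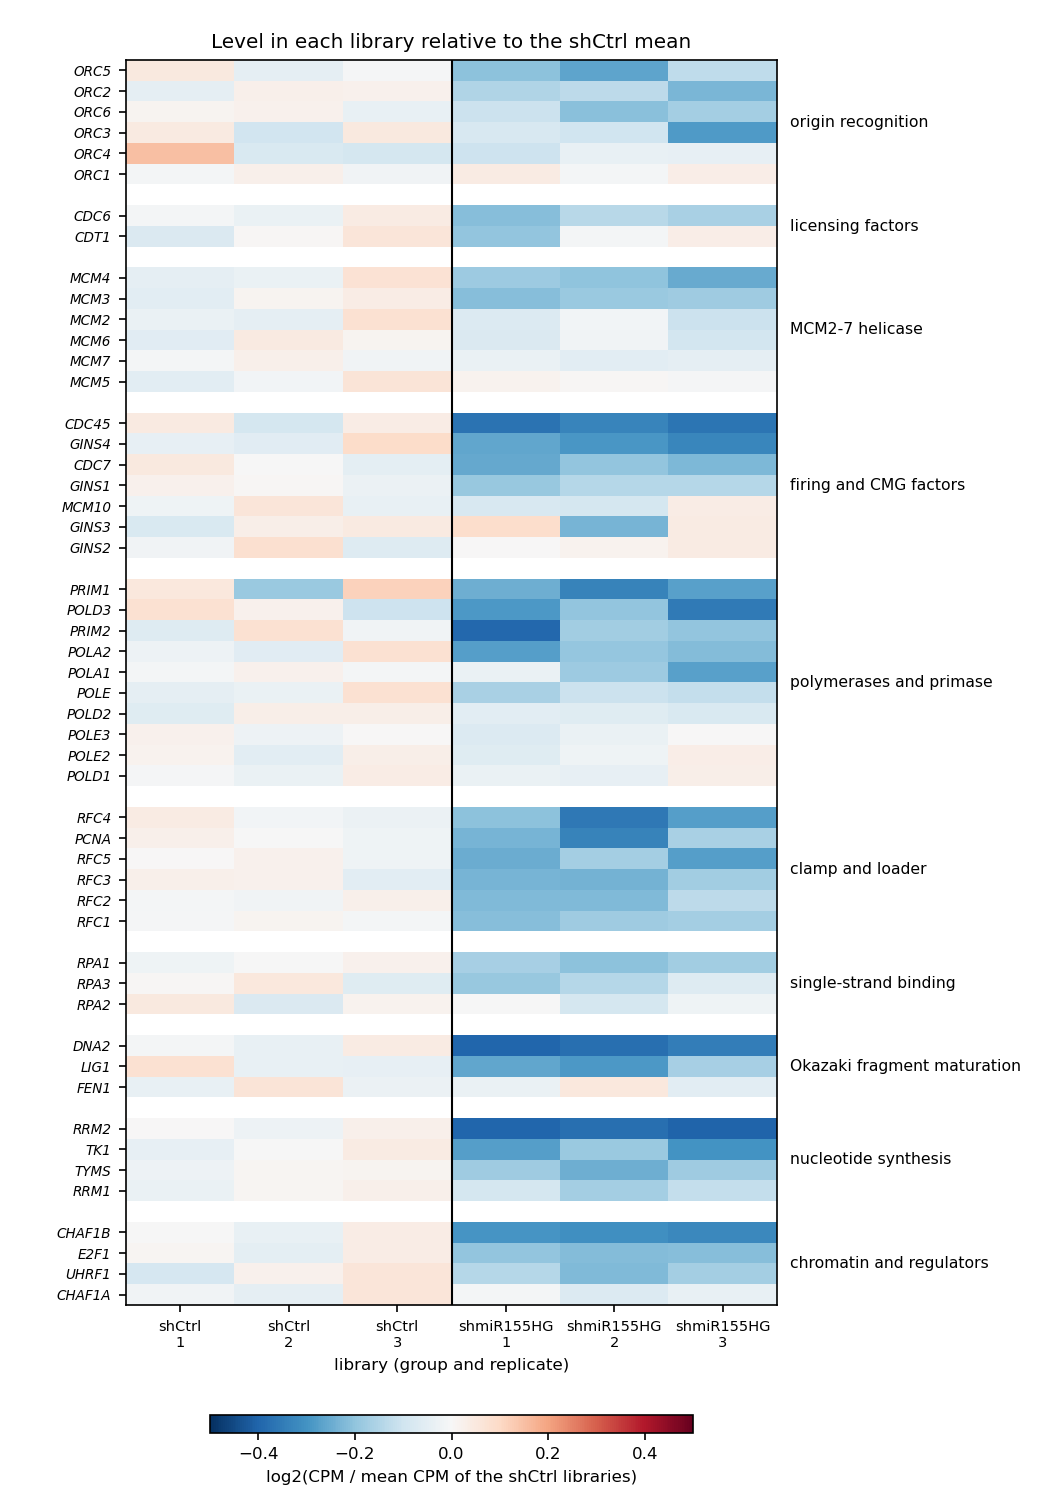
Level of each member (rows, by role group) in each of the 6 libraries (columns), as log2 of its CPM over the mean CPM of the 3 shCtrl libraries, blue for lower and red for higher. Rows such as RRM2, DNA2, CDC45 and GINS4 are blue in all 3 shmiR155HG libraries, while MCM5, ORC1, GINS2, FEN1 and POLD1 stay near 0 in all 6.

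The Okazaki fragment genes divided. DNA2, a nuclease and helicase that trims long flaps, at chr10:68414064-68472121 on the minus strand, measured 125, 123 and 129.6 CPM in shCtrl and 95.5, 96.9 and 99.0 CPM in shmiR155HG libraries. It fell by 22.8% (log2 fold change -0.37 ± 0.048 SE, adjusted p = 1.91e-06), the largest fall among members after RRM2. LIG1, the ligase that seals the fragments, measured 101, 93.6 and 93.4 CPM and 80.3, 78.8 and 85.7 CPM (log2 fold change -0.24 ± 0.056 SE, adjusted p = 0.00384), without overlap. FEN1, the main flap nuclease, measured 158, 169 and 158 CPM and 158, 168 and 156 CPM, and its groups overlapped (log2 fold change -0.011 ± 0.043 SE, adjusted p = 0.91). The standard error of FEN1 exceeded its change, so a small difference in either direction was not detectable at this spread.

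Among the polymerases, all 4 subunits of DNA polymerase alpha-primase were called lower, along with POLD3 and POLE. PRIM1, the catalytic primase subunit, was at 55.9, 47.5 and 58.4 CPM in shCtrl and 45.6, 42.9 and 44.7 CPM in shmiR155HG (log2 fold change -0.28 ± 0.074 SE, adjusted p = 0.00936). Its shCtrl replicate 2 lay close to the highest shmiR155HG library, and its adjusted p was 0.051 and 0.066 without shCtrl replicates 1 and 3, 0.066 without shmiR155HG replicate 2 and 0.0014 to 0.066 over the 14 alternatives. PRIM2, the large primase subunit, was at 41.2, 45.5 and 42.6 CPM and 32.8, 38.2 and 37.6 CPM (log2 fold change -0.25 ± 0.078 SE, adjusted p = 0.027). The call of PRIM2 was lost without shCtrl replicate 2 (adjusted p = 0.14) and without shmiR155HG replicate 1 (0.16), with 0.017 to 0.16 over the alternatives. POLA2, the B subunit of the complex, was at 105, 103 and 112 CPM and 88.2, 93.3 and 91.9 CPM (log2 fold change -0.23 ± 0.053 SE, adjusted p = 0.0031), and its call was kept in the 14 alternatives but not under the fold threshold of the study's rule. The catalytic subunit POLA1 had a log2 fold change of -0.16 (adjusted p = 0.040). This call was the least stable of the complex: without shCtrl replicates 1, 2 and 3 the adjusted p was 0.073, 0.14 and 0.061, without shmiR155HG replicates 2 and 3 it was 0.16 and 0.26, and the alternatives gave 0.0077 to 0.26.

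POLD3, an accessory subunit of polymerase delta, was the called one of the 3 delta subunits among the members. Its values were 82.6, 79.6 and 73.1 CPM in shCtrl and 64.3, 68.4 and 61.4 CPM in shmiR155HG libraries (log2 fold change -0.28 ± 0.063 SE, adjusted p = 0.00261), without overlap. The catalytic subunit POLD1 and the second subunit POLD2 had log2 fold changes of -0.015 and -0.064 and were not called (adjusted p = 0.86 and 0.38). A further delta subunit outside the members, POLD4, was at 0.20 and was not called (adjusted p = 0.42). The difference between these subunits was not tested. POLE, the catalytic subunit of polymerase epsilon, had a log2 fold change of -0.13 (adjusted p = 0.028). Its partners POLE2 and POLE3 were at -0.017 and -0.033 and were not called (adjusted p = 0.95 and 0.65). The epsilon subunit POLE4, outside the members, was at 0.16 and was not called either (adjusted p = 0.47). The call of POLE was lost without shCtrl replicate 3 (adjusted p = 0.14) and without shmiR155HG replicates 1, 2 and 3 (0.13, 0.066 and 0.079), and the alternatives gave 0.00332 to 0.14. POLE2 was the member of lowest mean level, 16.0 CPM over the 6 libraries, and had the largest standard error, 0.11.

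The factors that turn the loaded helicase into an active one contained some of the larger falls. CDC45, a core part of the CMG helicase, at chr22:19479457-19520612 on the plus strand, was at 103, 94.1 and 103 CPM in shCtrl and 77.5, 79.6 and 77.7 CPM in shmiR155HG libraries (log2 fold change -0.35 ± 0.055 SE, adjusted p = 3.26e-05). GINS4, a subunit of the GINS complex, was at 101, 100.3 and 111 CPM and 87.0, 85.2 and 83.2 CPM (log2 fold change -0.29 ± 0.054 SE, adjusted p = 3.29e-04). The 2 genes were separated between groups in every library, although 21.0% of the exonic bases of GINS4 lie opposite exons of the lncRNA gene AC009630.2. CDC7, the kinase that triggers firing, was at 103, 99.0 and 95.8 CPM in shCtrl and 83.1, 86.5 and 84.8 CPM in shmiR155HG (log2 fold change -0.23 ± 0.053 SE, adjusted p = 0.00345). GINS1 had a log2 fold change of -0.16 (adjusted p = 0.019), which rose to 0.071 and 0.066 without shCtrl replicates 1 and 2 and to 0.081 and 0.051 without shmiR155HG replicates 1 and 2 (0.00758 to 0.096 over the alternatives). GINS2, GINS3 and MCM10, a factor needed for helicase activation, were not called, at 0.020, -0.028 and -0.043 (adjusted p = 0.88, 0.85 and 0.63). The 4 subunits of this single complex therefore lay between -0.29 and 0.020 on the log2 scale.

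The MCM2-7 ring, the most abundant group by summed level, contained 2 called subunits. MCM4 was at 897, 905 and 973 CPM in shCtrl and 815, 805 and 777 CPM in shmiR155HG (log2 fold change -0.21 ± 0.034 SE, adjusted p = 4.71e-05), and MCM3 at 678, 709 and 721 CPM and 606, 619 and 621 CPM (log2 fold change -0.19 ± 0.032 SE, adjusted p = 9.61e-05). The groups of these 2 subunits did not overlap. MCM2 gave 553, 548 and 597 CPM and 539, 560.4 and 526 CPM (log2 fold change -0.063 ± 0.036 SE, adjusted p = 0.27), with overlap, and 23.6% of its exonic bases lie opposite exons of the gene AC023593.1. MCM6 gave 327, 350.5 and 344 CPM and 324, 336 and 319 CPM (log2 fold change -0.060 ± 0.037 SE, adjusted p = 0.31), and MCM7 gave 877, 899 and 872 CPM and 862, 851 and 855 CPM (log2 fold change -0.045 ± 0.030 SE, adjusted p = 0.36). MCM6 overlapped between groups, whereas all 3 shmiR155HG libraries of MCM7 lay just under the shCtrl libraries without passing the test. MCM5 showed 267, 274 and 289 CPM and 279.8, 277 and 276 CPM (log2 fold change 0.0051 ± 0.037 SE, adjusted p = 0.95), with all 3 shmiR155HG libraries inside the range of the shCtrl libraries. In counts of the same library, MCM4 was 3.36, 3.31 and 3.36 times MCM5 in shCtrl and 2.91, 2.90 and 2.82 times in shmiR155HG cells, again a pair picked after the values were seen. The 6 genes summed to 3694 ± 99.2 CPM in shCtrl and 3416 ± 38.9 CPM in shmiR155HG libraries (SD, n = 3), 7.51% lower.

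Origin recognition and licensing changed in part. ORC5 was at 76.3, 71.4 and 73.4 CPM in shCtrl and 64.0, 61.4 and 67.4 CPM in shmiR155HG (log2 fold change -0.20 ± 0.061 SE, adjusted p = 0.025), and ORC6, the smallest subunit, at 106, 107 and 102 CPM and 97.5, 91.0 and 93.3 CPM (log2 fold change -0.16 ± 0.051 SE, adjusted p = 0.030). These were the 2 called subunits of 6, and each call was lost with several of the libraries left out in turn. The adjusted p of ORC5 was 0.11 without shCtrl replicate 1 and 0.072 and 0.13 without shmiR155HG replicates 1 and 2 (0.013 to 0.13 over the alternatives). That of ORC6 was 0.088 and 0.11 without shCtrl replicates 1 and 2 and 0.14 and 0.097 without shmiR155HG replicates 2 and 3 (0.017 to 0.14). ORC2 was at 62.7, 65.8 and 65.7 CPM and 58.4, 59.1 and 55.3 CPM, without overlap but short of the threshold (log2 fold change -0.17 ± 0.062 SE, adjusted p = 0.067). ORC1, ORC3 and ORC4 had log2 fold changes of 0.022, -0.15 and -0.060 and were not called (adjusted p = 0.84, 0.17 and 0.75). CDC6, the ATPase that recruits the helicase to ORC, measured 159, 157 and 165 CPM in shCtrl and 138, 145 and 143 CPM in shmiR155HG libraries (log2 fold change -0.17 ± 0.043 SE, adjusted p = 0.0052). Its partner CDT1 measured 101, 107 and 111 CPM and 92.5, 106 and 109 CPM, with overlap (log2 fold change -0.054 ± 0.057 SE, adjusted p = 0.60), where shmiR155HG replicate 1 alone lay below all shCtrl libraries.

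Of the single-strand binding protein RPA, the large subunit was called and the others were not. RPA1 was at 252, 255 and 259.5 CPM in shCtrl and 227, 222 and 227 CPM in shmiR155HG (log2 fold change -0.18 ± 0.036 SE, adjusted p = 7.92e-04). RPA2 was at 196, 180.2 and 192 CPM and 189, 178 and 186 CPM, overlapping (log2 fold change -0.037 ± 0.042 SE, adjusted p = 0.63). RPA3, a low-level member, was at 20.4, 21.1 and 19.4 CPM and 17.8, 18.4 and 19.4 CPM (log2 fold change -0.13 ± 0.10 SE, adjusted p = 0.45), with the 2 groups adjacent but not overlapping.

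E2F1, an activator of the E2F family, was called lower, and its part in the levels of the other members was not tested. It measured 279, 268 and 285 CPM in shCtrl and 242, 239 and 239.8 CPM in shmiR155HG libraries (log2 fold change -0.21 ± 0.037 SE, adjusted p = 1.72e-04), with no overlap. CHAF1B, the middle subunit of the CAF-1 histone chaperone that packs new DNA, measured 52.9, 51.6 and 54.4 CPM and 43.2, 42.8 and 42.4 CPM (log2 fold change -0.31 ± 0.066 SE, adjusted p = 0.00161). Its large partner CHAF1A was not called (log2 fold change -0.038, adjusted p = 0.62). UHRF1, which brings DNA methylation maintenance to new strands, was at 141, 151 and 156 CPM in shCtrl and 135, 128 and 132 CPM in shmiR155HG (log2 fold change -0.18 ± 0.046 SE, adjusted p = 0.00768), and its adjusted p was 0.064 without shmiR155HG replicate 2 (0.00118 to 0.064 over the alternatives).

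**Figure D3:**
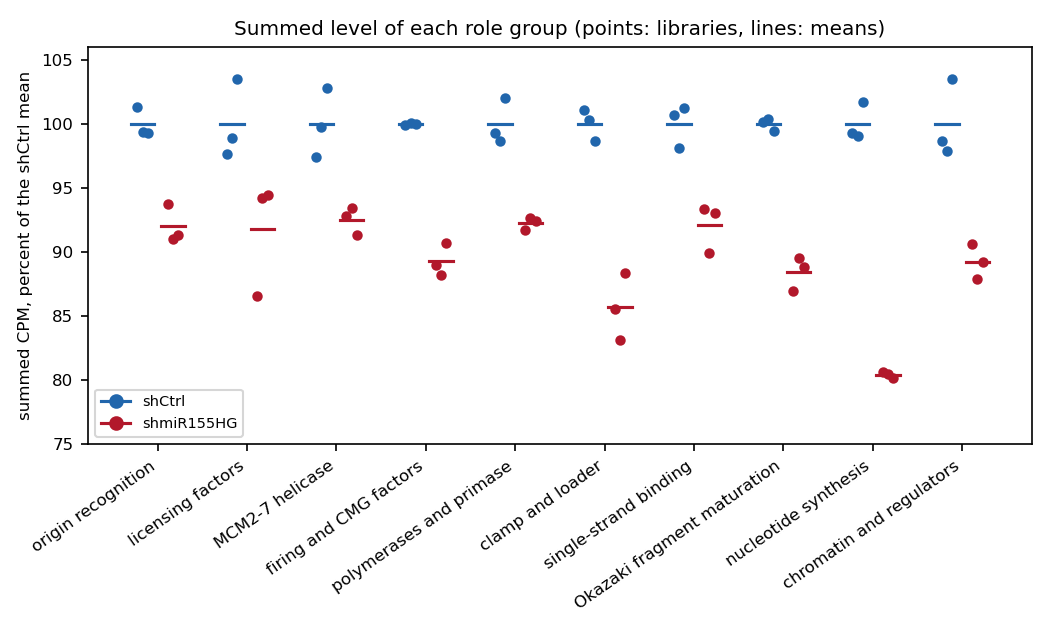
Summed CPM of each role group in every library (points), as a percent of the mean of the 3 shCtrl libraries, with group means as lines; the y axis starts at 75%. In all 10 role groups the 3 shmiR155HG points lie below the 3 shCtrl points, with the largest distance for nucleotide synthesis (80.4% of shCtrl) and the clamp and its loader (85.6%).

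The levels themselves covered a wide range. Per length of the chosen transcript, the highest levels in shCtrl cells were 376 ± 6.04 CPM per kb for PCNA, 358 ± 5.65 for MCM7 and 300.3 ± 5.47 for RRM2 (SD, n = 3), with no overlap between PCNA and MCM7. The lowest was 3.78 CPM per kb for ORC4, followed by 9.52 for POLE2 and 10.1 for RPA3. Members that were not called were found at both ends of this range.

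Base composition moved with the fold changes of all genes, so it is given beside the members. With the tested genes split into 4 equal bins by GC content of the transcript, the median log2 fold change of all genes rose from -0.053 in the lowest bin to 0.064 in the highest, and the share called lower fell from 12.8% to 4.75%. Among the members, 11, 19, 12 and 9 fell in these bins, with 7, 13, 7 and 4 called lower and medians of -0.20, -0.16, -0.18 and -0.064. After a correction for GC content in each library, 27 members were called lower and their median was -0.15.

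With the rule of the study's methods applied to these counts (edgeR exact test, P below 0.01 without adjustment, fold above 1.2), 8 members were called lower, beside 3.81% of all genes tested. They were RRM2, DNA2, CDC45, CHAF1B, GINS4, PRIM1, POLD3 and RFC4. Members such as PCNA and MCM4 passed the P of this rule but not its fold.

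Genes of the same pathways outside the member list, also chosen with earlier results of these data known, were called lower more often than higher. Of 80 further replication, nucleotide metabolism and E2F family genes, 79 passed the filter. Of these, 30 were called lower (38.0%) and 2 higher, with a median log2 fold change of -0.10. The shares over all genes tested were 8.02% lower and 7.26% higher. Replication and chromatin factors had 14 of 33 called lower, enzymes of nucleotide metabolism 10 of 34, and the E2F, DP and RB families 6 of 12. E2F7, a repressive E2F that is itself an E2F target, measured 38.1, 40.6 and 39.4 CPM in shCtrl and 26.3, 23.0 and 26.0 CPM in shmiR155HG libraries (log2 fold change -0.65 ± 0.083 SE, adjusted p = 1.89e-06), a log2 fold change below that of every member. DONSON, a factor in CMG helicase assembly, measured 99.9, 92.1 and 86.0 CPM and 69.6, 71.5 and 68.7 CPM (log2 fold change -0.41 ± 0.060 SE, adjusted p = 1.58e-05). Further falls without overlap between groups were those of RNASEH2A, the catalytic subunit of RNase H2, at -0.39 (adjusted p = 1.33e-05), SHMT1, which feeds one-carbon units to thymidylate synthesis, at -0.36 (adjusted p = 0.00104), and the helicase RECQL4 at -0.33 (adjusted p = 9.90e-04). The 2 genes called higher were RNASEH2C, another RNase H2 subunit, at 53.2, 55.7 and 55.1 CPM in shCtrl and 67.5, 63.7 and 73.3 CPM in shmiR155HG (log2 fold change 0.32 ± 0.065 SE, adjusted p = 9.47e-04), and E2F3, an activator E2F, at 111, 114 and 107 CPM and 131, 121 and 118 CPM (log2 fold change 0.16 ± 0.049 SE, adjusted p = 0.031). The count of 2 was 1 without shCtrl replicate 1 or shmiR155HG replicate 1 or 2, and 4 without shCtrl replicate 3.

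Lists of genes used to score cell cycle phase were read beside the members. The S phase list of 43 genes shares 19 genes with the members. It also shares DTL, HELLS, NASP, GMNN, TIPIN, DSCC1, CLSPN and E2F8 with the other pathway genes above, so these lists are not separate. Of the 24 that are not members, 17 were called lower and 0 higher, at a median of -0.20 on the log2 scale, and their summed level was 3616 to 3665 CPM in shCtrl and 3145 to 3251 CPM in shmiR155HG libraries. The G2/M list shares 0 genes with the members and TOP2A with the other pathway genes. Of its 52 tested genes, 9 were called lower (17.3%) and 6 higher. Over all genes tested, 8.02% were called lower and 7.26% higher. The log2 fold changes of the G2/M list ran in both directions, from -0.39 for CDK1 to 0.38 for PSRC1, with a median of -0.0037. The summed level of this list was 11037 to 11098 CPM in shCtrl and 10899 to 11140 CPM in shmiR155HG libraries. The difference between the lists was not tested.

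**Figure D4:**
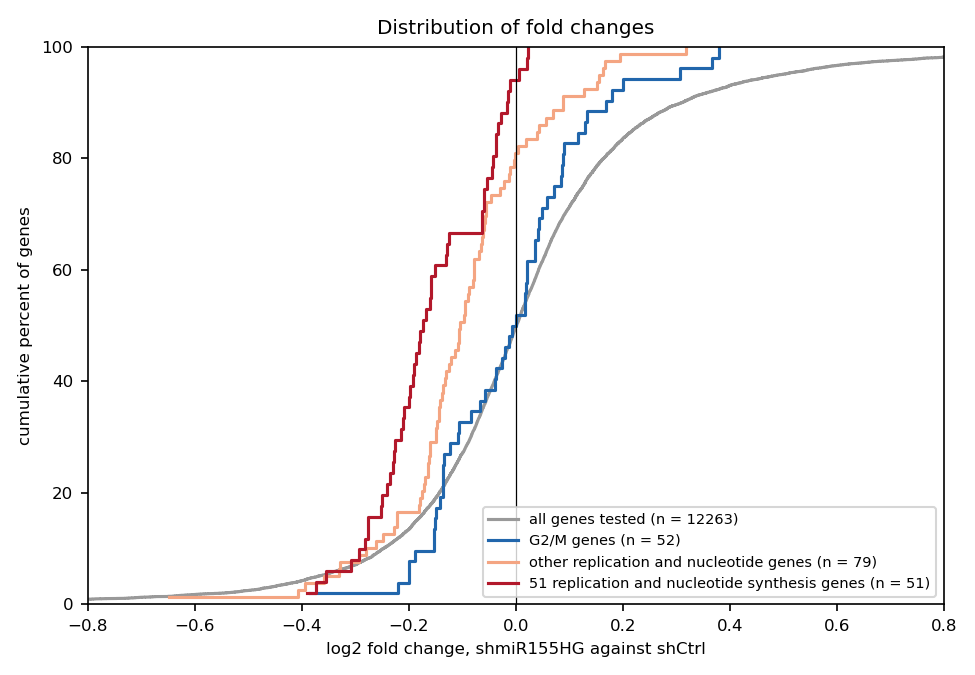
Cumulative percent of genes (y axis) by log2 fold change of shmiR155HG against shCtrl (x axis, shown from -0.8 to 0.8) for all 12263 genes tested, 52 G2/M genes, 79 other replication and nucleotide genes and the 51 members. The curve of the members rises left of 0, at a median of -0.17, while the G2/M genes cross 50% near 0.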

How the data were processed

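The authors aligned paired reads of 150 bases from poly(A) RNA to hg38 with HISAT2, calculated and combined read numbers with StringTie (-e option, reference transcripts only) and prepDE.py3, and deposited whole-number counts per gene without normalization. The annotation release and the use of strand are not given in the sources used here. From these counts, genes above 1 CPM in 2 or more libraries entered the test, the filter of the study's methods, with libraries scaled with TMM. Groups were compared with the quasi-likelihood test of edgeR 4.0.16 (R 4.3.3, robust fit, no block, Benjamini-Hochberg adjustment over all genes tested, adjusted p under 0.05), after the method was tested on simulated data. CPM are TMM-scaled, SD is within a group and SE is of the log2 fold change.

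All 6 libraries were used, with 33454786 to 39157264 counts each. Labels of shmiR155HG replicates 2 and 3 carry another number in the treatment field, and their titles set the group. The mean chi-square per gene of replicate pairs was 7.35 to 10.9, above sampling noise. Positions, transcript lengths and GC content came from GENCODE 44 (hg38), and promoter sequences from RefSeq (GRCh38.p14), where 44 of 51 members matched.

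Values in every library are given for members called with an absolute log2 fold change of at least 0.2, the 3 of lowest adjusted p in each role group, MCM2-7, PCNA, RRM1, RRM2, TYMS, TK1 and E2F1. Of other pathway genes, the 5 largest falls and the rises (at most 5) among called genes averaging 5 CPM or more are named. The members and lists were chosen with earlier results of these data known. Alternatives were DESeq2's size factors, total counts, no filter, filterByExpr, DESeq2 1.42.0, the study's exact test, halved counts (the default read length of prepDE.py3 is 75), the replicate block, a GC correction (lowess offsets) and each library left out.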

Additional observations from a re-analysis of the deposited data

How the results depend on the processing

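The member counts kept their direction throughout. Members called lower were 31 or 32 under the DESeq2 test, its size factors, total counts, no filter and halved counts, 30 with filterByExpr, 27 after the GC correction, 23 to 27 with 1 library left out and 8 under the study's rule, and 0 were called higher in each. Of the 31 calls, 22 held in all 14 alternatives with an adjusted p, and 0 of the 31 changed sign. The labels give the groups the same replicate numbers, but same-numbered libraries did not deviate together (r = -0.013, 0.012 and 0.020), so the numbers were not taken as pairs. With the replicate block, 30 members were called lower, the lost call being RRM1 (adjusted p = 0.059). The median of the members was -0.15 after the GC correction and -0.18 to -0.17 with 1 library left out. Of the other pathway genes, 8 were called lower and 1 higher under the study's rule, and 1 to 4 higher with 1 library left out. Over all genes tested, 984 lower and 890 higher became 467 and 552 under the study's rule as applied here. The paper itself reported more genes in both directions, and the reason for this difference was not tested. Over all genes tested, leaving out 1 library gave 674 to 917 lower and 580 to 891 higher calls, both fewest without shmiR155HG replicate 2. The median of the other pathway genes was -0.082 after the GC correction. The GC correction also ended the calls of GINS1, ORC5, POLA1, PRIM2 and RRM1 and added MCM2, filterByExpr ended that of POLA1, and DESeq2's test added ORC2. The cause of these shifts was not tested. Signs turned only in members that were not called. With 1 library left out, the log2 fold change ranged from -0.019 to 0.041 for MCM5, -0.0086 to 0.062 for GINS2, -0.089 to 0.066 for GINS3, -0.097 to 0.014 for CDT1, -0.10 to 0.024 for ORC4, -0.036 to 0.0060 for POLD1, -0.041 to 0.0059 for POLE2 and -0.043 to 0.022 for FEN1. After the GC correction it was -0.026 for MCM5 and 0.036 for POLE2. Members at low counts were the least precise, with POLE2 at an SE of 0.11 on the log2 scale. Counts stand for reads, not molecules.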
